A study of Mus musculus with 18 samples.

Results

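The genes described here are 55 genes whose products carry out mitosis. They were taken by name from a fixed list, and all 55 were found in the count files of the 18 libraries, among 22852 gene symbols. Of these symbols, 15486 had a count above 0 and 11305 had enough counts to be tested, and all 55 mitotic genes were among the tested ones. They were sorted by role into 8 kinases, 7 genes of the checkpoint, of the anaphase-promoting complex (APC/C) and of mitotic entry, 3 genes of the chromosomal passenger complex, 13 kinetochore and centromere genes, 7 genes of chromosome structure, 7 kinesins and 10 genes of spindle assembly and cytokinesis.

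In a dividing cell, these genes are transcribed late in the cycle, in G2 and mitosis, and are kept silent in resting cells by repressor complexes that sit on their promoters. Their products condense the chromosomes, build the spindle, hold sister chromatids at the kinetochore until every chromosome is attached, and then cut the cell apart. Macrophages grown from bone marrow with the growth factor M-CSF keep dividing in culture, and LPS, the cell wall component of Gram-negative bacteria that is sensed by TLR4, stops this division.

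The cells were BMDMs, bone marrow-derived macrophages of C57BL/6 mice grown in medium conditioned by L929 cells, which secrete M-CSF. The 6 groups had 3 biological replicates each. Unstimulated BMDMs received nothing, and LPS-stimulated BMDMs received 1 dose of LPS at 10 ng/ml for 3 h, where the time is read from a scheme of the treatments. LPS-primed BMDMs were kept in LPS at 100 ng/ml for 24 h. LPS-tolerant BMDMs were primed in the same way, their medium was then replaced, and they were given a second dose of LPS at 10 ng/ml for 3 h. The last 2 groups were LPS-primed and LPS-tolerant BMDMs that had received 25 µM carboplatin, a platinum drug that forms adducts with DNA, 1 h before LPS. Carboplatin was not given to unstimulated or LPS-stimulated BMDMs, so its effect was measured only in cells that had met LPS. The first and the long exposure differed in dose as well as in time, and the part of each cannot be told apart. LPS-tolerant differed from LPS-primed BMDMs by the new medium and 3 h more of culture as well as by the second dose. No group had new medium without LPS, so the part of each cannot be told apart here either.

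Between 6869667 and 14708099 read pairs per library were counted on genes. The macrophage markers Adgre1 and Lyz2 were high in every group, and the sum of 10 macrophage markers was between 15200 and 31600 CPM, which is the count scaled by the total of its library. The groups were not level in their replicates: replicate 3 was the lowest of the 3 unstimulated libraries for 49 of the 55 mitotic genes and the lowest of the 3 LPS-stimulated libraries for all 55. In LPS-primed BMDMs, replicate 1 was the lowest for 48, and in LPS-tolerant BMDMs replicate 1 was the lowest for 44. Values are given below in the order of the replicates 1, 2 and 3, as normalized counts, which are read counts scaled to a common library size.

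Many promoters of mitotic genes carry a cell cycle genes homology region (CHR), a short element bound by the MuvB complexes that switch these genes off in resting cells and on in G2, and CCAAT boxes, which bind the factor NF-Y. RefSeq promoters on GRCm38.p6, each 300 bases long with 250 bases before and 50 after the start of the gene, were matched to 43 of the 55 genes and gave 45 promoters. The CHR letters TTTGAA were found, on either strand, in 73.3% of these promoters and in 17.9% of all 32851 promoters of the same length. The rarer form TTCGAA was found in 13.3% of the mitotic and 1.56% of all promoters, whereas the looser forms stood at shares nearer to those of all promoters, TTTAAA at 20% against 13.2% and CTTGAA at 13.3% against 13.2%. At least 1 of these 4 forms was found in 91.1% of the mitotic and in 37.3% of all promoters. The box CCAAT was found in 73.3% and 37.4%. At least 2 CCAAT boxes stood in 44.4% of the mitotic promoters and in 11.7% of all. Mad2l1, Ncaph, Nuf2 and Nusap1 had none of these letters in the window.

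The 3 sequences shown next are those before the start of Ube2c, Cdc20 and Mki67. Ube2c and Cdc20 had among the largest falls after 24 h of LPS, and Mki67 had the highest level per kb in unstimulated cells. Capitals mark the CHR letters TTTGAA, which are written as TTCAAA where they lie on the other strand. They also mark the boxes, CCAAT on the strand shown and, where the box lies on the other strand, the letters ATTGG. In Ube2c, the boxes of both strands overlap at 1 place.
Ube2c, chr2:164769679-164769928, plus strand: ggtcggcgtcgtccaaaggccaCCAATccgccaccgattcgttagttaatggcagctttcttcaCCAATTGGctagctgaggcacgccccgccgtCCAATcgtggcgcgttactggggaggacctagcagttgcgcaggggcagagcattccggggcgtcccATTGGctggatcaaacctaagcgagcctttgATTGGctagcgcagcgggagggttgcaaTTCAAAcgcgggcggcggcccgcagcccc
Cdc20, chr4:118437344-118437443, minus strand: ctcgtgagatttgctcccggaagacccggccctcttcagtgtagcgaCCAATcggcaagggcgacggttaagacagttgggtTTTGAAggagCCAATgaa
Mki67, chr7:135716380-135716579, minus strand: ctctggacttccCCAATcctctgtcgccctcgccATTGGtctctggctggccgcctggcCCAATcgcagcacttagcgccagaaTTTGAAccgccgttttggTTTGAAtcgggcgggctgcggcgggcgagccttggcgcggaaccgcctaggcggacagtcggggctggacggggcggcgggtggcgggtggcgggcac

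In other members the element stood at or after the start of the gene, and the stretches around it are shown for 7 genes that the results return to, with the CHR letters in capitals. Plk1, Bub1b, Kif23, Cenpf and Cenpa carried TTTGAA, and Bub1 and Cdc25b carried TTCGAA, which reads the same on both strands.
Plk1, chr7:122159457-122159478, plus strand: gcgccgcgTTTGAAttcgggga
Bub1b, chr2:118598243-118598260, plus strand: acgttaaaTTTGAAactt
Kif23, chr9:61946784-61946805, minus strand: ttggcctgTTTGAAatgcgccg
Cenpf, chr1:189688071-189688092, minus strand: gcgggcagTTTGAAtcgctcgt
Cenpa, chr5:30666894-30666915, plus strand: ggtgatttTTTGAActgctggc
Bub1, chr2:127831832-127831853, minus strand: gcggggaaTTCGAAtcgccggc
Cdc25b, chr2:131186947-131186968, plus strand: tgttatttTTCGAAtatataag

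The letters TTTGAA lay close to the start. They were found within the 100 bases before and the 50 after it in 68.9% of the mitotic promoters and in 8.01% of all promoters. They began before the start in 17 and after it in 20 of the mitotic promoters. A match of letters is a description of the window and no measure of binding.

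**Figure D1:**
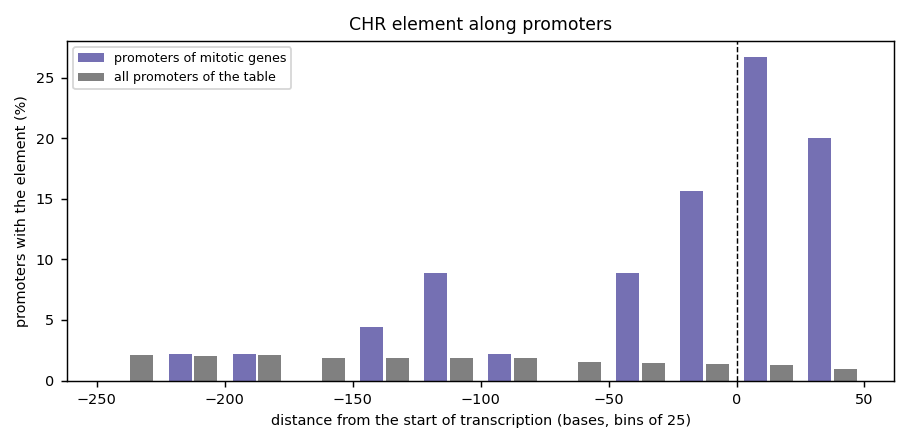
Share of promoters (y axis, percent) with TTTGAA on either strand in each 25-base bin of the distance from the start of the gene (x axis, bases), for the 45 promoters of mitotic genes and for all 32851 promoters. The mitotic promoters peak in the first 25 bases after the start, at 26.7% against 1.31% of all promoters.

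The 55 genes were highest in unstimulated BMDMs, lower after 3 h of LPS and lowest in the groups with carboplatin. Summed over the genes, the normalized counts were 48254 ± 10013 (SD, n = 3) in unstimulated BMDMs. Set against that mean, the sum was 64.2% in LPS-stimulated, 16.4% in LPS-primed and 13.8% in LPS-tolerant BMDMs, and 9.96% and 7.90% in LPS-primed and LPS-tolerant BMDMs with carboplatin. In bulk libraries of this kind, fewer dividing cells and less RNA per cell cannot be told apart. For 28 of the 55 genes, the 6 group means fell in exactly this order.

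Per kb of exon, the highest level in unstimulated BMDMs was that of Mki67, which coats mitotic chromosomes and serves as a marker of dividing cells, with 543 normalized counts per kb. Smc4, a condensin subunit, followed with 470 and Cdc20, the activator of the APC/C, with 448. The order changed with treatment. In LPS-primed BMDMs, Smc4 was the highest of these 3 with 190 normalized counts per kb, Mki67 had 93.2 and Cdc20 had 22.7. The lowest level in unstimulated BMDMs was that of Ska1, a subunit of the SKA complex that ties kinetochores to microtubules, with 17.9 normalized counts per kb.

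**Figure D2:**
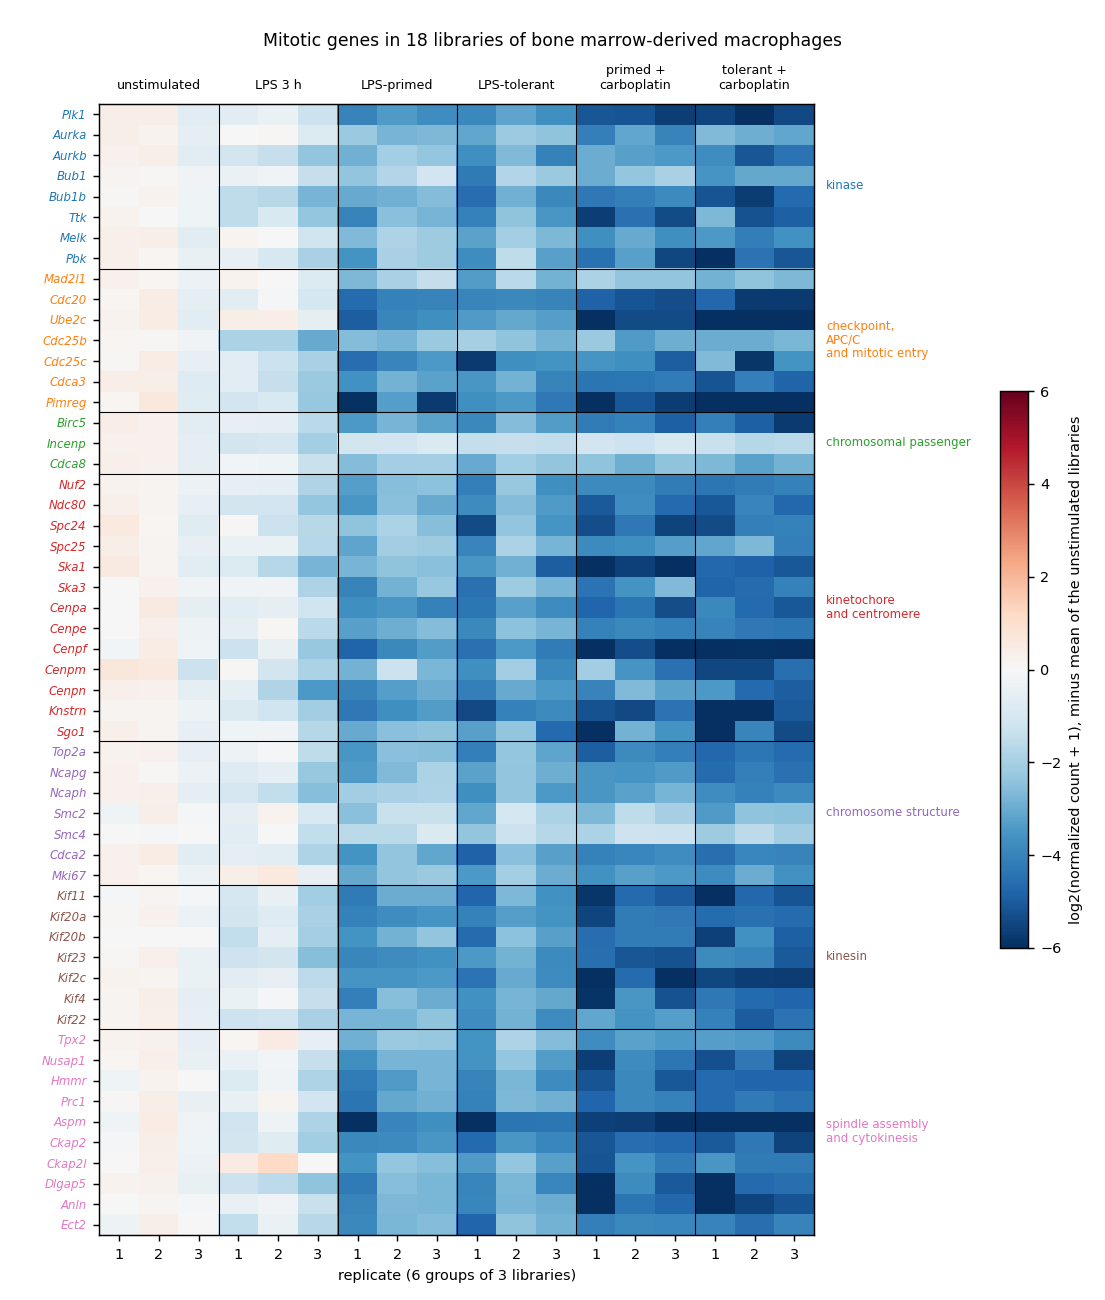
Heat map of the 55 mitotic genes (rows, by role) in the 18 libraries (columns, by group), coloured by log2(normalized count + 1) minus the mean of the unstimulated libraries, with the scale ending at 6 in each direction. The libraries of the 4 groups kept in LPS for 24 h or longer are lower than the unstimulated ones in nearly every row, and the LPS-stimulated libraries are mixed.

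The comparison of LPS-stimulated with unstimulated BMDMs asks what 3 h of LPS does to cells that had not met it. After 3 h, 23 of the 55 genes were lower and 0 were higher (quasi-likelihood test of edgeR, p adjusted by Benjamini-Hochberg, under 0.05), where 26.9% of all tested genes were lower and 24.3% higher. Their median log2 fold change was -0.89, against -0.09 over all tested genes. In means, the genes stood at 53.8% of the unstimulated level in the median, from 21.8% for Cdc25b to 155% for Ckap2l, and 27 of them at 50% or less. In 26 genes all LPS-stimulated libraries were below all unstimulated ones, which was so for 29.6% of all tested genes. With the replicate number as a block, 35 genes were lower and 1, Ckap2l, was higher, where 33.8% of all tested genes were lower and 29.5% higher. After group means were removed, the 55 genes correlated between same-numbered libraries at 0.703, -0.0619 and 0.0550 for replicates 1, 2 and 3. The pairing that this block assumes was thus uneven in these genes. The number called lower was 14 without unstimulated replicate 2, 14 without LPS-stimulated replicate 3, and 11 without replicate 3 of every group. When libraries were scaled by their size alone, the median of all genes shifted from -0.09 to -0.43 and 36 of the 55 were lower.

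The comparison of LPS-primed with unstimulated BMDMs asks for the state after 24 h. All 55 genes were lower after priming, where 13.1% of all tested genes were lower. The log2 fold changes lay between -4.73 for Pimreg and -1.07 for Incenp, with a median of -2.94 against -0.02 over all tested genes. In all 55 genes every LPS-primed library was below every unstimulated one, which was so for 21.3% of all tested genes. The median gene was left with 12.8% of its unstimulated mean, and 50 genes were at 25% or less. Without LPS-primed replicate 1, 53 were called, and Smc2 was not (adjusted p = 0.0524). Early LPS and LPS priming were both measured against the same unstimulated libraries, so their values stand side by side below and their likeness was not measured.

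**Figure D3:**
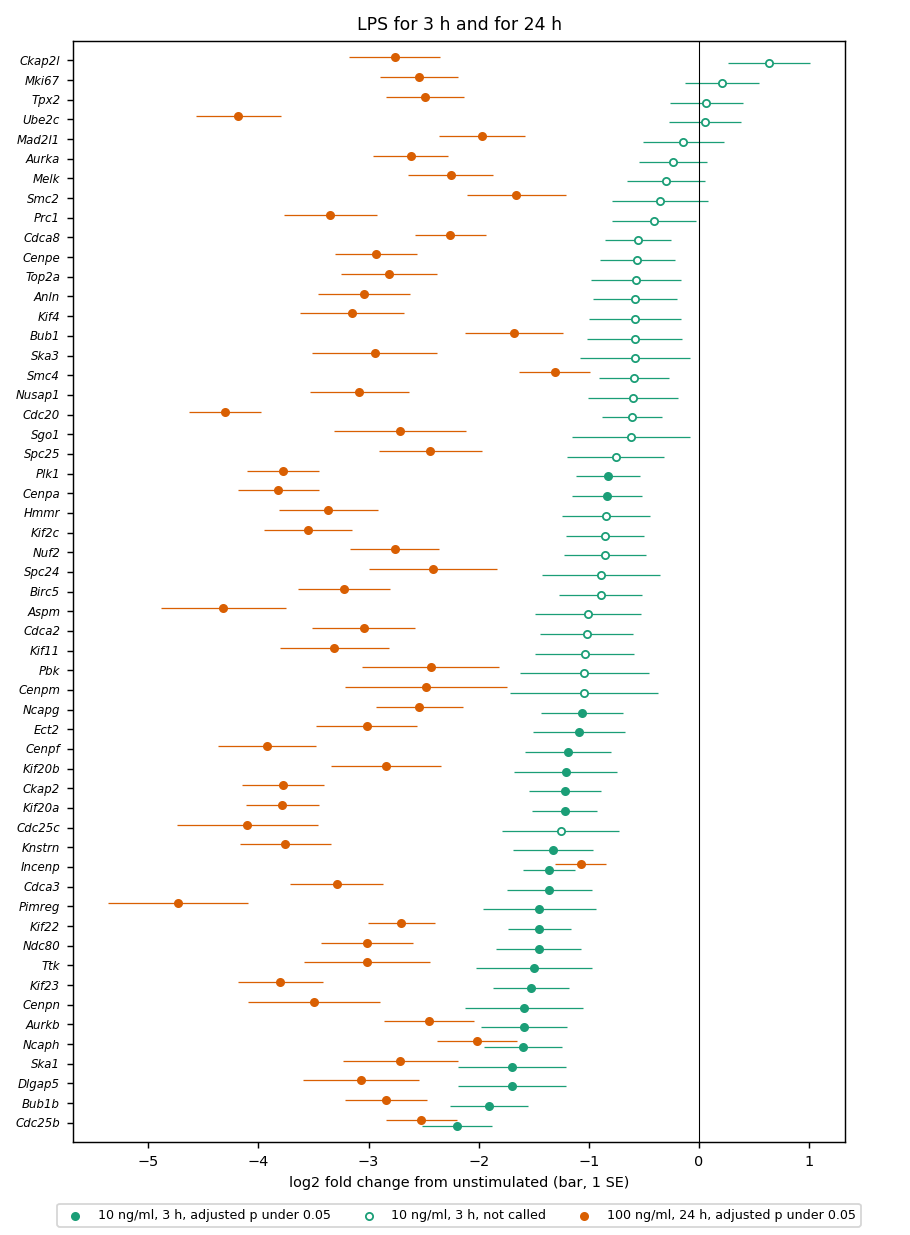
Log2 fold change of each of the 55 mitotic genes against unstimulated BMDMs after 10 ng/ml LPS for 3 h and after 100 ng/ml for 24 h. Colours mark the exposure, and open points are genes that were not called. The early values run from -2.20 for Cdc25b to 0.64 for Ckap2l, and the late values all lie below -1.

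Among the kinases, 4 of 8 fell early, 5 with the replicate block, and all 8 after 24 h. Of all tested genes, 26.9% were lower early, 33.8% with the block and 13.1% after 24 h. Plk1, the polo-like kinase that drives entry into mitosis and centrosome maturation, lies on chromosome 7 (GRCm39, 121758646 to 121769108). It had 1276, 1256 and 610 normalized counts in unstimulated, 620, 751 and 400 in LPS-stimulated, and 61.4, 94.6 and 73.1 in LPS-primed BMDMs. The first pair of groups overlapped only through unstimulated replicate 3, and the LPS-primed libraries were far below both. Its log2 fold change was -0.82 ± 0.29 (SE) early (adjusted p = 0.0243) and -3.78 ± 0.33 after priming (adjusted p = 2.27e-07). The early call was lost without unstimulated replicate 1 (adjusted p = 0.0984), unstimulated replicate 2 (adjusted p = 0.11) or LPS-stimulated replicate 3 (adjusted p = 0.119).

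Bub1b, the BubR1 protein of the spindle checkpoint, had 978, 1061 and 763 normalized counts in unstimulated, 319, 295 and 132 in LPS-stimulated and 114, 123 and 153 in LPS-primed BMDMs. At 3 h no library reached the unstimulated range, and 2 of the 3 were still above all LPS-primed libraries. The early log2 fold change was -1.91 ± 0.35 (adjusted p = 0.000257). Aurkb, the kinase of the chromosomal passenger complex, also fell early, by 1.59 ± 0.39 on the log2 scale (adjusted p = 0.00272). Bub1, which recruits the checkpoint proteins to the kinetochore, had 684, 641 and 520 normalized counts in unstimulated, 462, 532 and 237 in LPS-stimulated, and 116, 180 and 279 in LPS-primed BMDMs. Its 3 h libraries overlapped the unstimulated ones and the early difference did not pass (log2 fold change -0.58 ± 0.43, adjusted p = 0.273), and after 24 h it was lower by 1.68 ± 0.45 (adjusted p = 0.00985), the smallest fall of the kinases. Aurka, the kinase of the spindle poles, and Melk did not pass early either, with log2 fold changes of -0.24 ± 0.31 (adjusted p = 0.548) and -0.30 ± 0.36 (adjusted p = 0.507), whose sign turned without LPS-stimulated replicate 3 (0.0024 and 0.018).

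The checkpoint, APC/C and mitotic entry genes held the largest change of both comparisons, that of Cdc25b at 3 h and that of Pimreg at 24 h. Of these 7, 3 fell early, 5 with the replicate block, and all 7 after priming. The shares of all tested genes that were lower were 26.9% early, 33.8% with the block and 13.1% after priming. Cdc25b, on chromosome 2 (GRCm39, 131027866 to 131044913), encodes a phosphatase that activates CDK1 to start mitosis. It had 1190, 1157 and 932 normalized counts in unstimulated, 292, 291 and 131 in LPS-stimulated and 180, 157 and 233 in LPS-primed BMDMs. The unstimulated libraries stood apart, and the range at 24 h overlapped the range at 3 h. Cdc25b was 4.59-fold lower in the mean at 3 h (log2 fold change -2.20 ± 0.32, adjusted p = 2.34e-05) and 5.76-fold lower at 24 h (log2 fold change -2.52 ± 0.32, adjusted p = 1.68e-05).

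Ube2c and Cdc20 were not called at 3 h and fell far by 24 h. Ube2c, the ubiquitin-conjugating enzyme of the APC/C, on chromosome 2 (GRCm39, 164611768 to 164620742), had 872, 1010 and 480 normalized counts in unstimulated, 959, 980 and 513 in LPS-stimulated and 23.3, 49.0 and 57.2 in LPS-primed BMDMs. The unstimulated and 3 h ranges lay on top of each other, and the level at 24 h was 18.2-fold below the unstimulated mean. Its early log2 fold change was 0.05 ± 0.33 (adjusted p = 0.901), which became -0.28 when libraries were scaled by size alone, and after priming it was -4.18 ± 0.39 (adjusted p = 4.90e-07). Cdc20, on chromosome 4 (GRCm39, 118290098 to 118294610), had 917, 1126 and 574 normalized counts in unstimulated, 523, 785 and 404 in LPS-stimulated and 32.8, 49.0 and 50.6 in LPS-primed BMDMs. It fell 19.8-fold in the mean at 24 h (log2 fold change -4.30 ± 0.33, adjusted p = 4.58e-08), and its early value of -0.61 ± 0.27 passed only with the replicate block (adjusted p = 0.0737 without and 0.0148 with the block). Pimreg, which binds the clathrin assembly protein PICALM and peaks in mitosis, had 279, 397 and 154 normalized counts in unstimulated and 3.18, 25.1 and 3.75 in LPS-primed BMDMs, 25.9-fold lower in the mean. Its value rested on LPS-primed replicate 2, and the log2 fold change went from -4.73 to -6.26 without that library. Mad2l1, the MAD2 protein that holds back the APC/C, fell less, by 1.97 ± 0.39 on the log2 scale (adjusted p = 0.00117).

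Incenp, the scaffold of the chromosomal passenger complex, on chromosome 19 (GRCm39, 9846569 to 9876924), had 2215, 2249 and 1302 normalized counts in unstimulated, 863, 931 and 453 in LPS-stimulated and 875, 837 and 1025 in LPS-primed BMDMs. Its libraries at 3 h and 24 h overlapped and both groups were below all unstimulated libraries. The log2 fold change was -1.36 ± 0.23 early (adjusted p = 0.000135) and -1.07 ± 0.23 after priming (adjusted p = 0.00233), so Incenp was the only one of the 55 genes whose mean was not lower at 24 h than at 3 h. The other 2 subunits were not called early without the replicate block, and Birc5, survivin, passed with it (log2 fold change -0.89 ± 0.37, adjusted p = 0.0552 without and 0.0035 with the block), as it did without unstimulated replicate 3 (adjusted p = 0.0247) or LPS-stimulated replicate 1 (adjusted p = 0.0468). Cdca8, borealin, had 655, 634 and 374 normalized counts in unstimulated, 472, 446 and 214 in LPS-stimulated and 86.8, 129 and 132 in LPS-primed BMDMs, with log2 fold changes of -0.56 ± 0.30 early (adjusted p = 0.134) and -2.26 ± 0.32 after priming (adjusted p = 4.80e-05). Birc5 fell by 3.22 ± 0.42 after priming (adjusted p = 1.88e-05).

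Of the 13 kinetochore and centromere genes, 6 fell early, 7 with the replicate block, and all 13 after priming. Among all tested genes, 26.9% were lower early, 33.8% with the block and 13.1% after priming. The median log2 fold change of the 13 genes against unstimulated BMDMs was -0.89 early and -2.93 after priming. Cenpe, a kinesin that moves chromosomes to the spindle equator, had 1259, 1596 and 1052 normalized counts in unstimulated, 871, 1356 and 420 in LPS-stimulated and 132, 170 and 209 in LPS-primed BMDMs. The early ranges overlapped, and the early log2 fold change of -0.56 ± 0.34 did not pass (adjusted p = 0.179), where the later one was -2.93 ± 0.37 (adjusted p = 1.41e-05). Cenpf, a large protein of the outer kinetochore, had 990, 1492 and 932 normalized counts in unstimulated, 449, 818 and 227 in LPS-stimulated and 39.2, 75.2 and 110 in LPS-primed BMDMs. None of these 3 ranges overlapped, and the log2 fold changes were -1.19 ± 0.39 (adjusted p = 0.0171) and -3.92 ± 0.44 (adjusted p = 4.18e-06). Cenpa, the histone H3 variant that marks the centromere, had 726, 1030 and 481 normalized counts in unstimulated, 457, 491 and 309 in LPS-stimulated and 55.0, 61.5 and 42.2 in LPS-primed BMDMs. It fell by 0.83 ± 0.32 early (adjusted p = 0.037) and by 3.82 ± 0.36 after priming (adjusted p = 6.65e-07). The early call for Cenpf was lost without unstimulated replicate 2 (adjusted p = 0.0883) or LPS-stimulated replicate 3 (adjusted p = 0.0777), and that for Cenpa without unstimulated replicate 1 (adjusted p = 0.0617), unstimulated replicate 2 (adjusted p = 0.24), LPS-stimulated replicate 1 (adjusted p = 0.0521) or LPS-stimulated replicate 3 (adjusted p = 0.148). Ska1 went from 139, 105 and 58.2 normalized counts to 52.5, 28.4 and 12.8 early and to 12.7, 17.1 and 15.9 after priming, with log2 fold changes of -1.70 ± 0.49 (adjusted p = 0.0082) and -2.71 ± 0.52 (adjusted p = 0.000907).

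Of the 7 genes of chromosome structure, 2 fell early, 4 with the replicate block, and all 7 after priming. As 26.9% of all tested genes were lower early, the early count without the block was near the background. With the block 33.8% of all tested genes were lower early, and 13.1% were lower after priming. The condensin subunit Ncaph was one of the 2 called early and Mki67 was not. Ncaph had 808, 850 and 457 normalized counts in unstimulated, 339, 246 and 116 in LPS-stimulated and 159, 174 and 188 in LPS-primed BMDMs. Its early libraries were all below the unstimulated ones and reached the range at 24 h, with an early log2 fold change of -1.60 ± 0.36 (adjusted p = 0.00133). Mki67, on chromosome 7 (GRCm39, 135291513 to 135318299), had 6633, 5861 and 4235 normalized counts in unstimulated, 7097, 8279 and 3945 in LPS-stimulated and 643, 1047 and 1182 in LPS-primed BMDMs. Its early ranges overlapped, with a log2 fold change of 0.21 ± 0.34 (adjusted p = 0.63) that became -0.13 under scaling by size alone, and after priming it fell by 2.54 ± 0.36 (adjusted p = 4.45e-05). Smc4, whose ATPase forms the core of condensin, had 3111, 2942 and 3086 normalized counts in unstimulated, 1971, 2994 and 1105 in LPS-stimulated and 1000, 999 and 1683 in LPS-primed BMDMs. It was among the least reduced of the 55 after priming, 2.48-fold in the mean (log2 fold change -1.31 ± 0.33, adjusted p = 0.00623), and its early log2 fold change of -0.59 ± 0.32 passed only with the replicate block (adjusted p = 0.135 without and 0.0487 with the block). Top2a, the topoisomerase that untangles sister chromatids, fell by 2.82 ± 0.44 after priming (adjusted p = 0.000117).

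Of the 7 kinesins, 4 fell early, 6 with the replicate block, and all 7 after priming. Over all tested genes, 26.9% were lower early, 33.8% with the block and 13.1% after priming. Kif23, the motor of the central spindle, on chromosome 9 (GRCm39, 61823187 to 61854074), had 1620, 1873 and 1175 normalized counts in unstimulated, 650, 708 and 261 in LPS-stimulated and 99.5, 112 and 123 in LPS-primed BMDMs. The 3 groups did not overlap, and the log2 fold changes were -1.53 ± 0.35 (adjusted p = 0.00153) and -3.80 ± 0.39 (adjusted p = 1.34e-06). Kif20a, which brings the passenger complex to the midzone, had 1463, 1695 and 1098 normalized counts in unstimulated, 660, 811 and 358 in LPS-stimulated and 83.6, 104 and 121 in LPS-primed BMDMs. It fell by 1.22 ± 0.30 (adjusted p = 0.00252) and then fell by 3.78 ± 0.33 (adjusted p = 2.47e-07), and it shares exon bases with Cdc23 on the other strand. Kif22, the chromosome-arm motor, had 840, 935 and 535 normalized counts in unstimulated, 321, 331 and 192 in LPS-stimulated and 109, 106 and 139 in LPS-primed BMDMs, and its early fall was 1.45 ± 0.29 (adjusted p = 0.000483).

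Of the 10 genes of spindle assembly and cytokinesis, 3 fell early, 6 with the replicate block, and all 10 after priming. As 26.9% of all tested genes were lower early, the early count without the block was near the background. With the block 33.8% of all tested genes were lower early, and 13.1% were lower after priming. Tpx2, which activates Aurora A and nucleates spindle microtubules, had 1559, 1602 and 954 normalized counts in unstimulated, 1468, 1894 and 948 in LPS-stimulated and 180, 280 and 274 in LPS-primed BMDMs. The ranges of the first 2 groups coincided, with an early log2 fold change of 0.07 ± 0.33 (adjusted p = 0.88) that became -0.27 under scaling by size alone, and the value after priming was -2.49 ± 0.36 (adjusted p = 5.36e-05). Prc1, the microtubule bundler of the midzone, had 1423, 1730 and 983 normalized counts in unstimulated, 986, 1524 and 604 in LPS-stimulated and 63.5, 158 and 184 in LPS-primed BMDMs. Its log2 fold changes were -0.41 ± 0.38 (adjusted p = 0.387) and -3.35 ± 0.42 (adjusted p = 1.50e-05). Ckap2l, a spindle protein also called radmis, had 692, 828 and 528 normalized counts in unstimulated, 959, 1546 and 672 in LPS-stimulated and 55.0, 132 and 114 in LPS-primed BMDMs. It was higher in each LPS-stimulated library than in the unstimulated library of the same number, at a log2 fold change of 0.64 ± 0.38 (adjusted p = 0.168, and 0.0495 with the replicate block). After priming it was lower than in unstimulated BMDMs by 2.76 ± 0.41 (adjusted p = 7.78e-05). Dlgap5, a stabilizer of kinetochore fibres, fell by 1.70 ± 0.49 early (adjusted p = 0.00842), and Aspm, of the spindle poles, was 20.1-fold lower after priming.

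**Figure D4:**
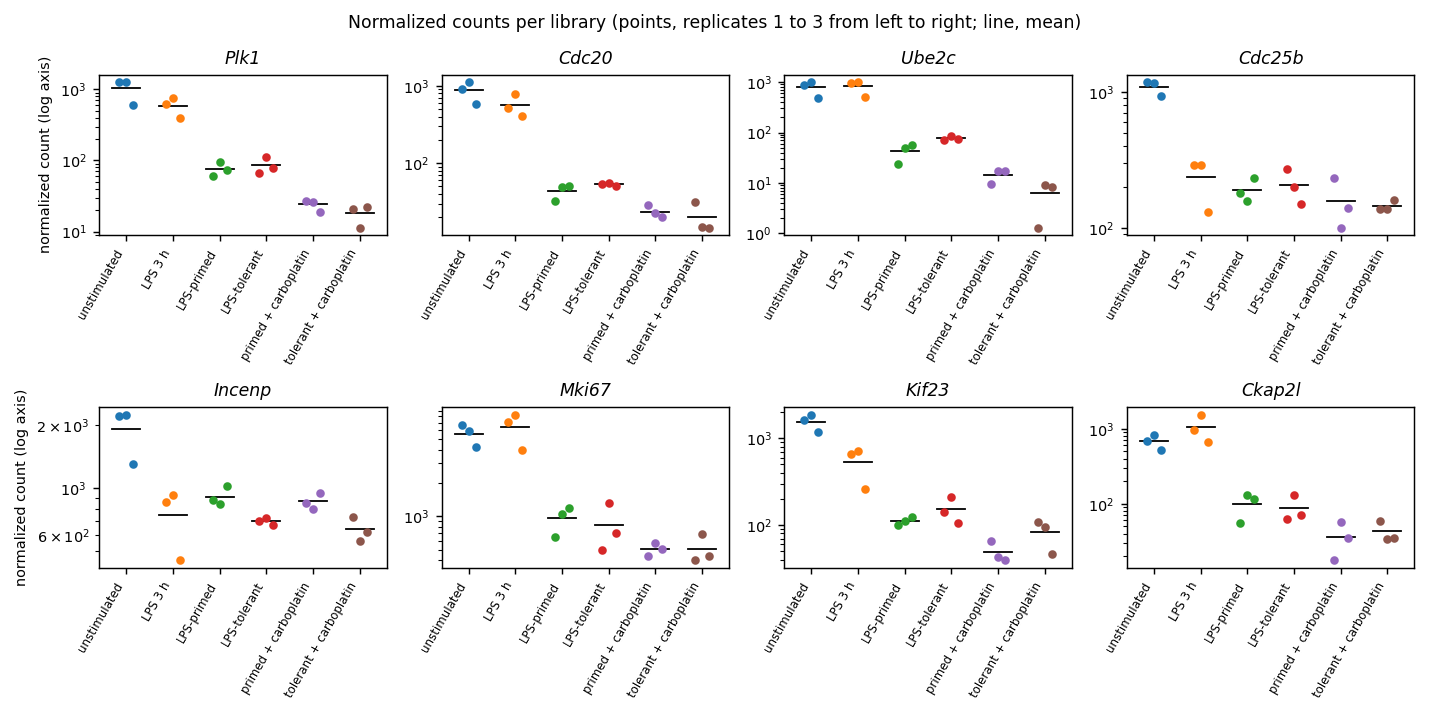
Normalized counts (log axis) of 8 mitotic genes in each library of the 6 groups, with each group's mean as a bar. Cdc25b and Incenp reach their low level at 3 h, whereas Ube2c, Mki67 and Ckap2l are still at the unstimulated level or above it at 3 h and low at 24 h.

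Set directly against each other, LPS-primed BMDMs were below LPS-stimulated BMDMs for 46 of the 55 genes and above for 0, where 22.6% of all tested genes were lower. The median log2 fold change was -2.10, against 0.03 over all tested genes. The 5 with the smallest p were Ube2c (-4.24 ± 0.39, adjusted p = 2.73e-07), Cdc20 (-3.69 ± 0.32, adjusted p = 1.44e-07), Ckap2l (-3.40 ± 0.42, adjusted p = 6.68e-06), Cenpa (-2.99 ± 0.36, adjusted p = 4.57e-06) and Plk1 (-2.95 ± 0.32, adjusted p = 1.65e-06). The genes that did not pass were Cenpm, Pbk, Bub1, Ska1, Aurkb, Smc4, Ncaph, Cdc25b and Incenp. For Incenp the log2 fold change was 0.29 ± 0.23 (adjusted p = 0.333), which became -0.072 without replicate 3 of every group, and for Cdc25b it was -0.32 ± 0.31 (adjusted p = 0.418).

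LPS-tolerant against LPS-stimulated BMDMs is the comparison of a second with a first dose of the same size and length. In the tolerant cells 52 of the 55 genes were lower, where 18.3% of all tested genes were lower, and the median log2 fold change was -2.34. Cdc20 was lower by 3.42 ± 0.31 on the log2 scale (adjusted p = 3.87e-07), Ube2c by 3.39 ± 0.37 (adjusted p = 2.58e-06) and Ckap2l by 3.57 ± 0.42 (adjusted p = 6.27e-06). In LPS-tolerant BMDMs Cdc20 had 53.2, 56.1 and 50.4 normalized counts, Ckap2l had 62.0, 132 and 70.0, and Cenpa had 34.2, 74.3 and 50.4. Each of these libraries was below all LPS-stimulated libraries of the same gene. The 3 genes not called were Cdc25b (-0.20 ± 0.31, adjusted p = 0.665), Incenp (-0.11 ± 0.23, adjusted p = 0.757) and Pbk (-1.49 ± 0.62, adjusted p = 0.0714), a kinase that is active in mitosis, and Pbk passed with the replicate block (adjusted p = 0.0112). The sign for Incenp turned without LPS-stimulated replicate 1 (0.0031) or replicate 2 (0.080).

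The second dose with its change of medium, LPS-tolerant against LPS-primed BMDMs, gave few calls in this gene group. By edgeR's quasi-likelihood test 0 of the 55 genes were called in either direction, where 2.71% of all tested genes were lower, and 5 had an unadjusted p under 0.05, where 21.1% of all tested genes did. DESeq2 called 1, Ncaph, and with the replicate block edgeR called 2, Ncaph (-1.11 ± 0.34, adjusted p = 0.0309) and Aurkb (-1.02 ± 0.35, adjusted p = 0.0487), where 8.32% of all tested genes were lower. The median log2 fold change was -0.17, against -0.01 over all tested genes. Ncaph had 159, 174 and 188 normalized counts in LPS-primed and 51.9, 130 and 61.8 in LPS-tolerant BMDMs, and Ube2c had 23.3, 49.0 and 57.2 and then 70.9, 87.2 and 75.2. The libraries of the 2 groups did not overlap in either gene, in opposite directions, but neither passed without the block (adjusted p = 0.0955 for Ncaph and 0.206 for Ube2c). Without LPS-tolerant replicate 2, Ncaph was called (adjusted p = 0.0283).

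Under carboplatin, the second dose again gave 0 calls by edgeR's quasi-likelihood test, where 0.690% of all tested genes were lower, with 5 genes at an unadjusted p under 0.05, where 14.4% of all tested genes were. Kif22 was called by DESeq2 and with the replicate block (-1.12 ± 0.32, adjusted p = 0.0348), the only one in each case, where 3.92% of all tested genes were lower with the block. Averaged over the cells with and without carboplatin, 4 genes were lower after the second dose and its change of medium, Kif22 (-0.92 ± 0.23, adjusted p = 0.0112), Ncaph (-0.91 ± 0.27, adjusted p = 0.0317), Aurkb (-1.06 ± 0.32, adjusted p = 0.0327) and Bub1b (-0.92 ± 0.28, adjusted p = 0.0336), where 7.22% of all tested genes were lower. Kif22 had 55.7, 105 and 53.5 normalized counts in LPS-tolerant BMDMs, and with carboplatin 85.1, 62.0 and 74.5 in LPS-primed and 44.6, 22.8 and 34.0 in LPS-tolerant BMDMs. Ncaph had 59.4, 73.3 and 97.6 with carboplatin in LPS-primed and 51.1, 39.8 and 47.8 in LPS-tolerant BMDMs. For both genes the tolerant libraries lay below the primed ones in both states. Aurkb went from 52.9, 95.7 and 78.8 to 30.4, 62.2 and 22.6 normalized counts at the second dose, and from 49.97, 40.4 and 35.2 to 28.8, 10.2 and 17.5 with carboplatin. Bub1b had 38.0, 123 and 62.8 in LPS-tolerant BMDMs, and with carboplatin 45.9, 53.6 and 65.4 in LPS-primed and 24.9, 17.1 and 35.8 in LPS-tolerant BMDMs. Without carboplatin, LPS-tolerant replicate 2 reached the primed range in Aurkb and in Bub1b. With the block the average lowered 7 and raised 1, Kif23 (0.55 ± 0.20, adjusted p = 0.0428), where 14.4% of all tested genes were lower and 14.9% higher. These averages rest on single libraries: the count was 1 without LPS-primed replicate 2 or 3, LPS-tolerant replicate 1 or 3, or LPS-tolerant with carboplatin replicate 2, 2 without LPS-primed with carboplatin replicate 2 or 3 or LPS-tolerant with carboplatin replicate 3, and 0 without replicate 3 of every group.

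Whether 10 ng/ml LPS for 3 h acted differently in primed cells than in cells that had not met LPS was tested as a difference of the 2 responses. The second response includes the change of medium. The difference was higher for 4 of the 55 genes and lower for 0, where 10.5% of all tested genes were higher and 13.3% lower. The 4 genes were among those that fell early. Cdc25b fell at the first dose and had 180, 157 and 233 normalized counts before and 273, 201 and 149 after the second, a difference between the responses of 2.32 ± 0.44 (adjusted p = 0.00092). Kif23 had 99.5, 112 and 123 before and 141, 211 and 107 after the second dose (1.99 ± 0.50, adjusted p = 0.00793). Both second-dose ranges overlapped those before it, and the change at the second dose itself was not called (adjusted p = 0.876 and 0.523).

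The remaining pair was Kif20a, with 83.6, 104 and 121 normalized counts before and 82.3, 138 and 115 after the second dose (difference between the responses 1.35 ± 0.43, adjusted p = 0.0312), and Incenp, with 875, 837 and 1025 before and 696, 718 and 668 after (0.97 ± 0.33, adjusted p = 0.0412). For Incenp the second dose was lower in each library, without a call, and the first dose had lowered it more. With the replicate block 8 genes were higher, where 17.2% of all tested genes were. Leaving out 1 library left 2 calls without unstimulated replicate 1 or 2, LPS-stimulated replicate 3, LPS-primed replicate 1, or LPS-tolerant replicate 2 or 3, with adjusted p between 0.051 and 0.0853 for Kif20a and between 0.0613 and 0.107 for Incenp. Incenp alone was lost without LPS-tolerant replicate 1 (adjusted p = 0.0666), and both were lost without LPS-primed replicate 2 (adjusted p = 0.0565 and 0.0877). Before the second dose the mitotic genes were already near 12.8% of their unstimulated level in the median, so an equal ratio is a much smaller number of reads there.

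With carboplatin, 54 of the 55 mitotic genes had a log2 fold change below 0 in LPS-primed and 54 in LPS-tolerant BMDMs. In LPS-primed BMDMs 1 gene, Ska1, was called lower, where 0.372% of all tested genes were, and 38 of the 55 had an unadjusted p under 0.05, where 6.86% of all tested genes did. In LPS-tolerant BMDMs 3 genes, Ube2c, Plk1 and Anln, were called lower, where 0.407% of all tested genes were, and again 38 had an unadjusted p under 0.05, where 6.73% of all tested genes did. The median log2 fold change was -1.17 in LPS-primed and -1.29 in LPS-tolerant BMDMs, against 0.01 over all tested genes in both. All carboplatin libraries were below all libraries without it for 34 genes in LPS-primed cells, where this was so for 7.68% of all tested genes, and for 26 in LPS-tolerant cells, where it was so for 6.12%.

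The number of genes called depended on the test. With the replicate block 12 were lower in LPS-primed and 13 in LPS-tolerant BMDMs, where 1.53% and 1.43% of all tested genes were lower. DESeq2 called 9 and 15, and the share of all tested genes that it called is not given here. A fit of the 6 libraries of each comparison alone called 0 in both. The libraries of the LPS-primed and LPS-tolerant comparisons are separate, and 53 of the 55 genes had a log2 fold change below 0 in both, which was so for 31.4% of all tested genes. Same-numbered LPS-primed and LPS-tolerant libraries without carboplatin correlated, however, between 0.313 and 0.574 after group means were removed. The mitotic genes also moved together within a library, as LPS-tolerant replicate 2 was the highest of its group for 51 of them. Counts of genes are therefore not counts of independent results. Counted by same-numbered pairs, 36 genes were lower with carboplatin in all 6 pairs, which was so for 10% of all tested genes. In at least 5 pairs 49 were lower, for which the share of all tested genes is not given here.

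Ska1 had 12.7, 17.1 and 15.9 normalized counts in LPS-primed BMDMs and 0, 0.940 and 0 with carboplatin. No carboplatin library held more than 1 read pair of this gene, and set against a floor of 3 counts per library it was at least 4.62-fold lower (adjusted p = 0.0257). The call was lost without any single one of LPS-primed replicate 2 or 3 (adjusted p = 0.0839 and 0.0693) or the carboplatin replicates 1, 2 and 3 (adjusted p = 0.13, 0.0911 and 0.164). In LPS-tolerant BMDMs it had 7.60, 12.1 and 2.06 normalized counts without and 2.62, 2.28 and 1.84 with carboplatin, so these groups overlapped.

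Ube2c had 70.9, 87.2 and 75.2 normalized counts in LPS-tolerant BMDMs and 1.31, 9.11 and 8.27 with carboplatin, a log2 fold change of -3.56 ± 0.49 (adjusted p = 0.00166). Ube2c was under 10 normalized counts in each of these carboplatin libraries, so the size of its fall is at the limit of the depth. In LPS-primed BMDMs it went from 23.3, 49.0 and 57.2 to 9.45, 16.9 and 17.1 (-1.54 ± 0.44, adjusted p = 0.249). All carboplatin libraries were below all others in both states, by more in the tolerant cells, but the difference between the states of -2.02 ± 0.69 did not pass (adjusted p = 1). Over the group, that difference was called for 0 of the 55 genes and for 0 (0%) of all tested genes by edgeR's quasi-likelihood test, and for 0 of the 55 by DESeq2. An unadjusted p under 0.05 was found for 2 of the 55, Ube2c and Ska1, and for 1.16% of all tested genes.

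Plk1 had 61.4, 94.6 and 73.1 normalized counts in LPS-primed BMDMs and 27.0, 26.3 and 19.1 with carboplatin (-1.66 ± 0.36, adjusted p = 0.0589, and 0.00595 with the replicate block). In LPS-tolerant BMDMs it had 67.1, 111 and 77.2 without and 21.0, 11.4 and 22.1 with carboplatin (-2.23 ± 0.37, adjusted p = 0.00723). The groups did not overlap in either state. Anln, anillin, the scaffold of the contractile ring, had 54.4, 121 and 104 normalized counts in LPS-tolerant BMDMs and 5.24, 17.1 and 22.1 with carboplatin (-2.60 ± 0.49, adjusted p = 0.0237), and 52.9, 126 and 124 in LPS-primed BMDMs and 12.2, 38.5 and 31.2 with carboplatin (-1.84 ± 0.45, adjusted p = 0.126, and 0.0151 with the replicate block). In the tolerant cells the call for Plk1 was lost without LPS-tolerant replicate 2 (adjusted p = 0.0523) or carboplatin replicate 2 (adjusted p = 0.089). That for Anln was lost without LPS-tolerant replicate 2 (adjusted p = 0.116) or 3 (adjusted p = 0.0663) or carboplatin replicate 1 (adjusted p = 0.0941) or 2 (adjusted p = 0.12). Pimreg was at the floor in LPS-tolerant cells with carboplatin, at least 5.32-fold lower than without it (adjusted p = 0.128, and 0.00813 with the block).

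**Figure D5:**
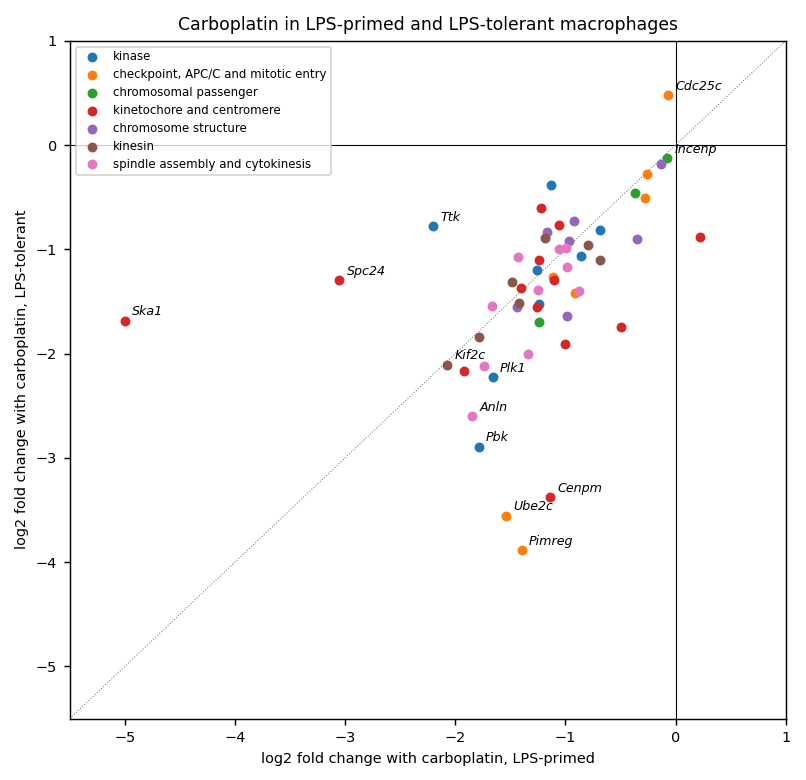
Log2 fold change with carboplatin in LPS-primed (x axis) and in LPS-tolerant BMDMs (y axis) for the 55 mitotic genes, coloured by role. All but 2 genes lie below 0 on both axes, and the positions of Ska1, Pimreg and Cenpm, which are at the floor of 3 counts in a carboplatin group, depend on the prior count.

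Averaged over both states, carboplatin lowered 20 of the 55 genes and raised 0, where 1.88% of all tested genes were lower. With the replicate block it lowered 40, where 4.48% of all tested genes were lower. The 5 with the smallest p were Ube2c (-2.55 ± 0.33, adjusted p = 0.000279), Plk1 (-1.94 ± 0.26, adjusted p = 0.0003), Anln (-2.22 ± 0.33, adjusted p = 0.0011), Kif2c, a kinesin that takes microtubules apart at the centromere (-2.09 ± 0.33, adjusted p = 0.00185), and Cenpf (-2.04 ± 0.35, adjusted p = 0.00367). Larger log2 fold changes than most of these were fitted for Ska1 (-3.34 ± 0.63, adjusted p = 0.0073), Pimreg (-2.64 ± 0.66, adjusted p = 0.0487) and Pbk (-2.34 ± 0.54, adjusted p = 0.0293), of which Ska1 and Pimreg were at the floor in a carboplatin group. Ska1 kept its call without any single library, whereas Pimreg lost it without each one but LPS-primed replicates 1 and 3 (adjusted p between 0.0527 and 0.253), and Pbk lost it without LPS-primed replicate 2 or 3, LPS-tolerant replicate 2, or replicate 1 or 3 of either carboplatin group (adjusted p between 0.0617 and 0.121). Kif2c had 52.9, 53.5 and 57.2 normalized counts in LPS-primed BMDMs and 5.40, 24.4 and 7.04 with carboplatin, and 27.9, 77.7 and 45.3 in LPS-tolerant BMDMs and 13.1, 11.4 and 11.03 with it. Cenpf had 14.9, 27.3 and 16.1 in LPS-primed BMDMs with carboplatin, and 49.4, 102 and 60.7 without and 15.7, 17.1 and 14.7 with it in LPS-tolerant BMDMs. In both genes every carboplatin library was below every library without it in the same state. Top2a (-1.50 ± 0.30, adjusted p = 0.0124), Bub1b (-1.38 ± 0.28, adjusted p = 0.0124), Cdc20 (-1.17 ± 0.25, adjusted p = 0.0178) and Birc5 (-1.47 ± 0.32, adjusted p = 0.0228) were also lower, and Mki67 was called only with the replicate block (-0.82 ± 0.24, adjusted p = 0.106 without and 0.014 with the block). The count rested on single libraries. It was 34 without LPS-tolerant replicate 1, 8 without LPS-tolerant replicate 2, 10 and 12 without LPS-primed replicate 2 and 3, 12 and 11 without LPS-primed with carboplatin replicate 1 and 3, 13 and 11 without LPS-tolerant with carboplatin replicate 2 and 3, and 3 without replicate 3 of every group.

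For some members the groups overlapped in both states. Incenp had 875, 837 and 1025 normalized counts in LPS-primed BMDMs and 854, 795 and 946 with carboplatin, and 696, 718 and 668 and then 733, 561 and 615 in LPS-tolerant cells. Cdc25b had 180, 157 and 233 and then 234, 101 and 140 in LPS-primed cells, and 273, 201 and 149 and then 138, 139 and 161 in LPS-tolerant cells. Neither gene was called in either state.

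Other genes of the same machinery were followed as lists. Of 64 further cycle-regulated mitotic genes, 23 were lower and 2 higher at 3 h (median log2 fold change -0.86), 56 lower and 0 higher after priming (median -2.25), and 13 lower under carboplatin averaged over both states (median -0.79). Of all tested genes, 26.9% were lower and 24.3% higher at 3 h, 13.1% and 12.1% after priming, and 1.88% lower in the carboplatin average. With the replicate block 41 of the 64 were lower at 3 h, where 33.8% of all tested genes were, and 26 under carboplatin, where 4.48% were. Among them, cyclin B1 (Ccnb1) fell by 3.53 ± 0.38 after priming (adjusted p = 2.31e-06), cyclin B2 (Ccnb2) by 4.46 ± 0.39 (adjusted p = 2.65e-07) and their kinase Cdk1 by 2.82 ± 0.35 (adjusted p = 1.16e-05). The 2 most abundant of the list, the tubulins Tubb5 and Tuba1b, are used by all cells, and after priming they had log2 fold changes of -0.65 ± 0.23 (adjusted p = 0.0509, and 0.0048 with the block) and -0.29 ± 0.30 (adjusted p = 0.534).

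The core subunits of the APC/C and of cohesin are made through the whole cycle. They were listed together with the APC/C activator Fzr1 and with regulators of cohesin. Of 25, 4 were lower and 2 higher at 3 h and 3, Anapc15, Fzr1 and Rad21, were lower after priming, with a median of -0.16. The share lower was below the 26.9% of all tested genes at 3 h and near the 13.1% after priming. With the block 8 were lower and 4 higher at 3 h, and 6 lower and 1 higher after priming, where 19.8% of all tested genes were lower and 18.9% higher. The most abundant, Anapc5 and Smc1a, had log2 fold changes of -0.44 ± 0.23 (adjusted p = 0.174) and -0.51 ± 0.18 (adjusted p = 0.0508, and 0.00404 with the block) after priming.

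Among 15 regulators of the mitotic promoters, 4 were lower and 4 higher at 3 h, and 3 were lower after priming, where 26.9% of all tested genes were lower and 24.3% higher at 3 h and 13.1% lower after priming, so these counts were near the background. With the block 6 were lower and 1 higher after priming, where 19.8% of all tested genes were lower and 18.9% higher, so the share lower was above the background there. Foxm1, the activator that works with MuvB in G2, fell by 1.36 ± 0.44 at 3 h (adjusted p = 0.0171) and by 3.04 ± 0.48 after priming (adjusted p = 0.000157). Lin9, a MuvB subunit, was lower after priming by 1.44 ± 0.40 (adjusted p = 0.0122), and Tfdp2, a dimerization partner of E2F factors, was the remaining one. Cdkn1a, the CDK inhibitor p21, rose by 1.85 ± 0.37 at 3 h (adjusted p = 0.000488), and after priming its value was 0.54 ± 0.36 (adjusted p = 0.31). Rbbp4, a histone chaperone in the MuvB core, had -0.17 ± 0.14 after priming (adjusted p = 0.435).

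The DNA replication genes, which peak earlier in the cycle, were called in like numbers at both times. Of 41 tested, 25 were lower at 3 h (median -1.08) and 21 after priming (median -1.18), and between 3 h and 24 h 3 were lower and 3 higher (median -0.17). Of all tested genes, 26.9% were lower at 3 h and 13.1% after priming, and 22.6% were lower and 22.0% higher between the times. Under carboplatin 2 were lower in the average over both states (median -0.43), where 1.88% of all tested genes were. With the block 32 were lower after priming and 8 under carboplatin, where 19.8% and 4.48% of all tested genes were. Rrm1, a subunit of ribonucleotide reductase, fell by 1.03 ± 0.31 at 3 h (adjusted p = 0.0114) and by 1.65 ± 0.32 after priming (adjusted p = 0.000903), and the replication clamp Pcna had a log2 fold change of -0.12 ± 0.26 at 3 h (adjusted p = 0.715) and fell by 0.93 ± 0.26 after priming (adjusted p = 0.0132).

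Markers of other cell types moved with the LPS groups. The summed level of 10 B lineage markers was 33.4 to 201 CPM in unstimulated and 7.24 to 27.8 CPM in LPS-stimulated BMDMs and at most 1.34 CPM in the other groups. Ighm, the heavy chain of IgM, made up 98.5% of it in unstimulated cells, and 6 of the 10 markers were at 0 there, among them the B lineage transcription factors Pax5 and Ebf1. Progenitor markers summed to at most 5.71 CPM, led by Kit, T and NK markers to at most 5.31 CPM, erythroid markers to at most 0.818 CPM and stromal markers to at most 9.60 CPM. Neutrophil and granule markers, nearly all S100a8, rose from 1.05 to 1.96 CPM in unstimulated to 9.05 to 46.3 CPM in LPS-primed BMDMs. Of the 10 macrophage markers, 5 were higher and 2 lower after priming, where 12.1% of all tested genes were higher and 13.1% lower, with Adgre1, the F4/80 antigen, higher by 1.57 ± 0.22 (adjusted p = 4.39e-05). The part of cells of other types in the levels of the mitotic genes was not tested.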

How the data were processed

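The authors used a TruSeq stranded mRNA kit, HISAT2 with the genome GRCm39 as aligner and HTSeq-count for counting read pairs on gene symbols. The files deposited by the authors hold these raw counts, without normalization, and 1 file per library. Program versions, the gene annotation and the strand option of the counting are not given in the sources used here. Of the mitotic genes, 34 share exon bases with another gene, 2 of them on the same strand. Reads of the overlap may have been left out or assigned to either gene. Between 26.5% and 33.1% of the read pairs fell on no gene. In all, between 41.5% and 46.9% were not counted on genes and were left out.

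The quasi-likelihood F test of edgeR 4.0.16 (R 4.3.3) was run on the counts of all 18 libraries together, with group means, TMM scaling and a prior count of 0.125. Genes were kept by filterByExpr, whose limits are a count of 10 and a total of 15. Adjusted p follows Benjamini and Hochberg over the 11305 tested genes, and a gene was called at an adjusted p under 0.05 in either direction, with no fold limit. The SE was taken from the log2 fold change and F, as the size of the former over the root of the latter. For normalized counts, each count was scaled by its library's effective size (size times TMM factor) to the average effective size. A group with at most 3 counts in each library was treated as being at the floor, and limits and intervals cover counting error only. The scripts were tested on simulated data. Where samples of a group are called biological replicates, separate animals are not stated, and p-values measure the spread between these libraries.

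The replicate numbers come from the sample labels. After group means were removed, same-numbered libraries correlated between 0.0631 and 0.574. The lowest value was that of replicate 3 in LPS-primed against LPS-stimulated BMDMs, and all others were at least 0.183, so the numbers were taken as pairs except in that comparison, and values from a fit that holds the replicate number as a block stand beside a result where a named call changed or a count moved by over 1.5 times.

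Per-library values are given for the 2 most abundant genes of each role, for up to 5 called genes of each comparison with the smallest p, and for Ska1, which earlier results of these data named. Other values in the text were chosen after they were seen, as were the Mki67 promoter and the short stretches around CHR letters. The 55 genes, the roles and the gene lists were chosen with earlier results of these data known. Exon lengths and positions are those of GENCODE vM39 on GRCm39, with the union of exons as length, and promoter sequences are those of RefSeq on GRCm38.p6. Promoters of 12 of the genes were not used here.

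The alternatives were RLE size factors, no expression filter, DESeq2 1.42.0 (limma 3.58.1 is loaded by edgeR), fits of only the groups compared, the replicate block, the limits of the study, and leaving out each library in turn. Chosen after seeing the data were scaling by library size alone, leaving out replicate 3 of every group, and the averages of the carboplatin and second-dose comparisons over both states.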

Additional observations from a re-analysis of the deposited data

Results flagged for a closer look

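For 4 of the 55 mitotic genes the response to 10 ng/ml LPS for 3 h differed between LPS-primed and unstimulated BMDMs by a test of the difference itself (edgeR's quasi-likelihood test, Benjamini-Hochberg adjustment over all tested genes), where 10.5% of all tested genes had a higher second response, so the count is no larger than the background. The second response minus the first was 2.32 ± 0.44 on the log2 scale for Cdc25b (adjusted p = 0.00092), 1.99 ± 0.50 for Kif23 (adjusted p = 0.00793), 1.35 ± 0.43 for Kif20a (adjusted p = 0.0312) and 0.97 ± 0.33 for Incenp (adjusted p = 0.0412). Each of the 4 was lowered by the first dose and none was called at the second. The calls for Kif20a and Incenp were each lost without any 1 of unstimulated replicate 1 or 2, LPS-stimulated replicate 3, LPS-primed replicate 1 or 2, or LPS-tolerant replicate 2 or 3 (adjusted p between 0.051 and 0.0853 for Kif20a and between 0.0613 and 0.107 for Incenp), and that for Incenp also without LPS-tolerant replicate 1 (adjusted p = 0.0666).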

How the results depend on the processing

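LPS priming called between 53 and 55 of the 55 genes without any single library and 55 in every other fit that kept the limits used here. With the replicate block, early LPS gave 35 lower and 1 higher, the second dose 2, the second dose with carboplatin 1, carboplatin 12 in LPS-primed and 13 in LPS-tolerant BMDMs and 40 in the average, the second minus the first response 8, and the averaged second dose 7 lower and 1 higher. It gave 50 in LPS-primed against LPS-stimulated BMDMs, where the numbers did not pair, and 53 in LPS-tolerant against LPS-stimulated BMDMs. Scaling by library size alone gave 36 lower in early LPS and shifted the median of all genes from -0.02 to -0.26 in LPS priming, from 0.03 to 0.13 between 3 h and 24 h and from 0.06 to 0.30 in the difference of the responses. Without the expression filter, carboplatin called 3 in LPS-primed, 5 in LPS-tolerant BMDMs and 34 in the average. DESeq2 called 1 in each second-dose comparison, 9 and 15 with carboplatin, and 39 in its average. Outside the fit used here and the replicate block, the share of all tested genes called is not given. Fits of only the groups compared called 0 with carboplatin in either state. The limits of the study left 1 in early LPS, 29 between 3 h and 24 h, 3 and 8 with carboplatin, 8 in its average, 0 in the averaged second dose and 1 in the difference of the responses. Without replicate 3 of every group, early LPS called 11, carboplatin 0 in both states and 3 in the average, and the averaged second dose 0. Leaving out 1 library gave 14 to 29 lower in early LPS, 39 to 51 between 3 h and 24 h, 46 to 53 in LPS-tolerant against LPS-stimulated BMDMs, 0 to 1 for the second dose, 0 to 1 and 1 to 4 for carboplatin in LPS-primed and LPS-tolerant BMDMs, 8 to 34 in its average, 2 to 6 for the difference of the responses and 1 to 6 for the averaged second dose.

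Signs turned only for values that were not called. In early LPS, scaling by size alone gave -0.28 for Ube2c, -0.27 for Tpx2 and -0.13 for Mki67. Leaving out 1 library gave -0.18 to 0.30 for Ube2c, -0.18 to 0.29 for Tpx2, -0.015 to 0.46 for Mki67, -0.45 to 0.0024 for Aurka, -0.54 to 0.018 for Melk and -0.35 to 0.11 for Mad2l1 in early LPS, -0.37 to 0.080 for Incenp in LPS-tolerant against LPS-stimulated BMDMs, and -0.12 to 0.32 for Cdc25b at the second dose. Without replicate 3 of every group Mad2l1 gave 0.014 in early LPS, and Incenp -0.072 between 3 h and 24 h. The cause of these changes was not tested. At the depth of these libraries, genes under 10 counts after carboplatin, such as Ska1, Pimreg and Cenpm, are at the limit of the depth. This holds for Ube2c and Pbk in LPS-tolerant BMDMs with carboplatin too, with means of 6.23 and 5.94 normalized counts, although neither was at the floor.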

Other observations

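A few genes of the mitotic list beyond the 55 moved the other way, and were named after their values were seen. Ube2s, which extends ubiquitin chains on APC/C substrates, was higher at 3 h by 0.53 ± 0.20 on the log2 scale (adjusted p = 0.0325), and Zwint, a kinetochore protein, by 0.70 ± 0.21 (adjusted p = 0.0116). Their mean normalized counts were 1142 and 334 in unstimulated and 1653 and 543 in LPS-stimulated BMDMs. Pttg1, securin, was higher at 24 h than at 3 h by 0.65 ± 0.24 (adjusted p = 0.0383), with means of 334 and 215. All adjusted p are from edgeR's quasi-likelihood test.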
